A study of Mus musculus with 11 samples.

Results

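The SLAM family consists of cell-surface receptors of the immunoglobulin superfamily on blood and immune cells. Its 9 members measured here were Cd84, Cd48, Cd244, Ly9, Slamf1, Slamf6, Slamf7, Slamf8 and Slamf9, taken by gene symbol from the 42815 loci of the deposited table. Each symbol matched 1 locus. Gonadal white adipose tissue came from 5 14-3-3ζKO and 6 wild-type libraries. 14-3-3ζKO mice lack 14-3-3ζ, the adaptor protein encoded by Ywhaz, in the whole body, so no cell type was targeted. All mice were male, C57Bl/6, singly housed and killed at 50 weeks of age, and the controls were littermates. The diet is uncertain, since the labels name standard chow and the study names a low-fat diet for this adipose comparison. The labels do not tie libraries to named animals, so p-values measure the spread between these libraries, which may be technical.

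Most SLAM receptors bind a copy of themselves on a neighbouring cell, whereas CD48 is the ligand of CD244. The tails of the signalling members carry tyrosines in a switch motif, which bind the small SH2 adaptors SAP (Sh2d1a) and EAT-2 (Sh2d1b1). SAP brings in the kinase Fyn, and the same tails can instead bind phosphatases such as SHP-1 (Ptpn6). In adipose tissue such receptors are borne by the resident and recruited leukocytes rather than by adipocytes.

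The switch motif was read as codons for threonine, any residue, tyrosine, any pair of residues, and valine or isoleucine. It was sought after the most hydrophobic stretch of 19 codons of each coding sequence (GENCODE M1, NCBIM37). Cd244 had 4 copies, Cd84, Ly9, Slamf1 and Slamf6 had 2 each, and Slamf7 had 1. Cd48, Slamf8 and Slamf9 had 0, and Cd48 has only 2 codons after that stretch, too few to hold the motif. At least 1 copy after that stretch was held by 3.53% of 20772 mouse coding sequences, and at least 2 copies by 0.188%. The coding sequences of the more abundant signalling members are shown because the motif divides the family into receptors with and without it, with the threonine, tyrosine and valine or isoleucine codons in capitals.
Cd84, chr1:173814736-173814753, plus strand: ACAgtaTATgctgtaGTT
Cd84, chr1:173815732-173815749, plus strand: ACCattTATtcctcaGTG
Ly9, chr1:173524043-173524060, minus strand: ACTccaTATgataaaGTG
Ly9, chr1:173523569-173523586, minus strand: ACAatcTACtgctctGTG
Slamf7, chr1:173566458-173566475, minus strand: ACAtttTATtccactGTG
Slamf6, chr1:173869568-173869585, plus strand: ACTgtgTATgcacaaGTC
Slamf6, chr1:173871795-173871812, plus strand: ACAattTACtccataGTT

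Ywhaz was measured first, as a check of the labels. It had 18.7, 38.2, 17.1, 14.5 and 24.1 FPKM in the 14-3-3ζKO libraries, against 94.2 to 118.3 FPKM in the wild-type libraries. FPKM counts sequenced fragments relative to transcript length and to all mapped fragments of a library, so levels can be compared between genes. No 14-3-3ζKO library reached the lowest wild-type library. On the log2(FPKM + 1) scale the genotypes differed by −2.28 ± 0.24 (SE; exact two-sided permutation test, p = 0.00216, the smallest that 462 assignments can give, adjusted p = 0.0399). Adipocyte markers were abundant, with Adipoq at 1607 FPKM in 14-3-3ζKO and 1474 FPKM in wild-type tissue. Markers of epididymal epithelium were present too, with Lcn5 at 2141 FPKM in 14-3-3ζKO and 2737 FPKM in wild-type tissue, and the 6 such markers had a median log2 fold of −0.87. The labels give a nominal 20000000 paired-end reads, but no mapped total for each library, so no counting interval is given.

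All 9 SLAM genes had a lower value in 14-3-3ζKO than in wild-type tissue. The authors' value for each group is 1 pooled FPKM, so these 9 comparisons have no replicate error and no test. A locus was counted as lower or higher at a log2((KO + 1)/(WT + 1)) of −1 or 1, if its group values averaged at least 1 FPKM. Of the 7 SLAM loci at or over that floor, 6 were lower and 0 were higher. Over all 15245 loci at or over the floor, 4.31% were lower and 9.67% were higher. The median log2 fold was −1.79 over the 7 SLAM loci and 0.04 over all loci. Summed over the 9 members, the family stood at 36.2 FPKM in 14-3-3ζKO and 167.9 FPKM in wild-type tissue. In bulk tissue, fewer cells of a type and less RNA per cell cannot be told apart.

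**Figure D1:**
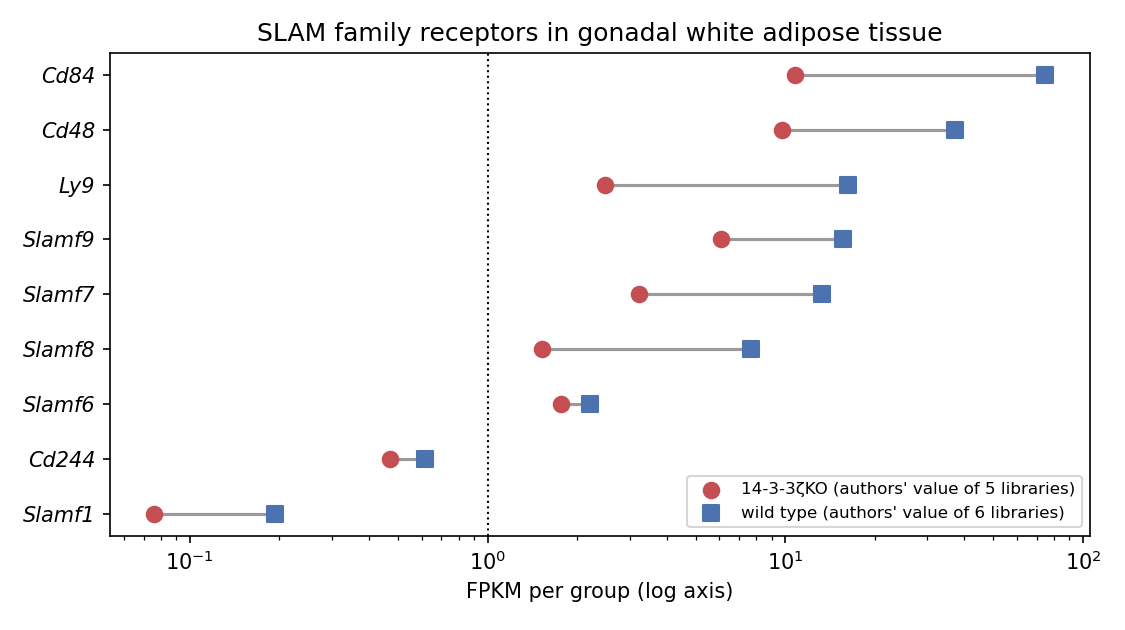
Group FPKM of the 9 SLAM genes on a log axis, as 1 pooled value of the authors per group and without error bars, for 14-3-3ζKO and wild-type tissue, with a dotted line at 1 FPKM. Every gene has its 14-3-3ζKO value below its wild-type value, with Cd84 at 10.8 against 74.8 FPKM and Slamf6 at 1.77 against 2.203 FPKM.

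Among the members that carry the switch motif, Cd84 had the highest level and the lowest log2 fold. Cd84, a self-binding receptor of macrophages, mast cells, platelets and B cells, stood at 10.8 FPKM in 14-3-3ζKO and 74.8 FPKM in wild-type tissue. Its 14-3-3ζKO value was 14.5% of the wild-type value, and its log2 fold of −2.68 ranked 56 from the lowest of 15245 loci. Ly9, a self-binding receptor best known on T and B cells, stood at 2.47 FPKM in 14-3-3ζKO and 16.3 FPKM in wild-type tissue, a log2 fold of −2.32. Slamf7, which binds itself and is found on NK cells, plasma cells and activated macrophages, stood at 3.23 FPKM in 14-3-3ζKO and 13.3 FPKM in wild-type tissue, a log2 fold of −1.76. The locus used for Slamf7 extended 7698 bases beyond the annotated gene.

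The other members with a switch motif were near or under the floor. Slamf6, a receptor of T, B and NK cells, stood at 1.77 FPKM in 14-3-3ζKO and 2.203 FPKM in wild-type tissue, and its log2 fold of −0.21 did not pass. Cd244, the receptor for CD48 on NK cells and some T cells, was at 0.469 FPKM in 14-3-3ζKO and 0.616 FPKM in wild-type tissue. Slamf1, the founding member, was at 0.0760 FPKM in 14-3-3ζKO and 0.194 FPKM in wild-type tissue. Neither was counted, because both lay under the floor.

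All 3 members without the motif after the hydrophobic stretch were lower past the fold. Cd48, a ligand held in the membrane by a lipid anchor and found on most leukocytes, stood at 9.74 FPKM in 14-3-3ζKO and 37.2 FPKM in wild-type tissue, a log2 fold of −1.83. Its receptor Cd244 thus had 0.469 FPKM against 9.74 FPKM of ligand in 14-3-3ζKO tissue, and 0.616 FPKM against 37.2 FPKM in wild-type tissue. Slamf8, a short-tailed receptor of myeloid cells, stood at 1.52 FPKM in 14-3-3ζKO and 7.70 FPKM in wild-type tissue, a log2 fold of −1.79. Slamf9, also short-tailed, stood at 6.07 FPKM in 14-3-3ζKO and 15.6 FPKM in wild-type tissue, a log2 fold of −1.23. The Slamf9 locus spanned 47606 bases, of which 44388 lay beyond the annotated gene of 3218 bases, so its value is uncertain.

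The make-up of the family differed between the groups. Cd84 gave 29.9% of the summed SLAM FPKM in 14-3-3ζKO and 44.5% in wild-type tissue, the first place in both. Cd48 gave 26.9% in 14-3-3ζKO and 22.2% in wild-type tissue. Slamf9 gave 16.8% in 14-3-3ζKO and 9.29% in wild-type tissue. Slamf6 gave 4.89% in 14-3-3ζKO and 1.31% in wild-type tissue. With 1 pooled value per group, the spread of these shares is unknown.

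Cd84 was the only member among the 86 loci with values per library, a set that the authors selected by comparing these same libraries. Cd84 had 11.5, 21.1, 3.10, 12.0 and 6.38 FPKM in 14-3-3ζKO libraries 1 to 5. In wild-type libraries 1 to 6 it had 110.0, 24.1, 154.9, 131, 17.5 and 10.9 FPKM. Wild-type libraries 1, 3 and 4 were far above the rest, while wild-type library 6 lay below 3 of the 14-3-3ζKO libraries, so the groups overlapped. The means were 10.8 ± 6.83 FPKM in 14-3-3ζKO and 74.8 ± 64.5 FPKM in wild-type tissue (SD, n = 5 and 6).

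On that same scale Cd84 differed by −2.25 ± 0.78 (SE) between the genotypes. It had an unadjusted p of 0.0368 by the exact two-sided permutation test. By that test the adjusted p over the 86 loci was 0.0510, which missed the threshold of 0.05. Because the authors selected these loci on the same libraries, p-values for them tend to be too small. Of the 86 loci, 69 had an unadjusted p under 0.05 by that test, so the adjustment changed little. Passing or missing the threshold is therefore no independent support for a difference. Over the 29 alternatives the adjusted p of Cd84 ranged from 0.00338 to 0.349 by limma or the permutation test. By limma with all libraries the adjusted p was 0.0178, past the threshold, and the permutation test passed without wild-type library 5 (adjusted p = 0.0488) or 6 (adjusted p = 0.0231). The permutation test called 41 of the 86 loci lower (47.7%) and 15 higher. It called 0 members, with 1 member at an unadjusted p under 0.05, and limma called 1. Without 14-3-3ζKO library 1, 2, 4 or 5 the permutation test called 0 loci, Ywhaz included, with 55 to 68 loci at an unadjusted p under 0.05 and 57 to 71 called by limma. It called 9 loci without 14-3-3ζKO library 3, and 14 and 17 without wild-type library 1 and 4.

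**Figure D2:**
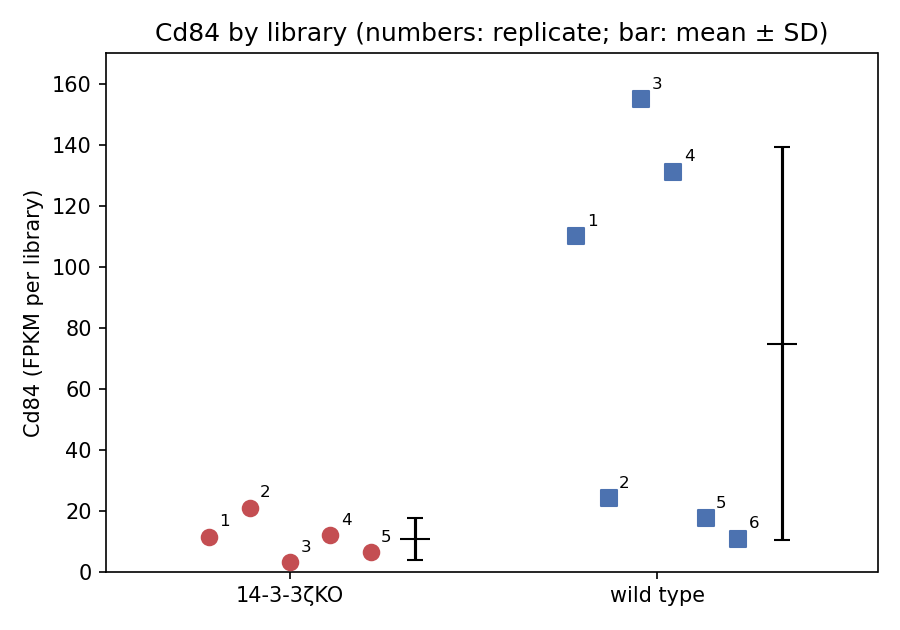
Cd84 FPKM in each of the 5 14-3-3ζKO and 6 wild-type libraries, with replicate numbers beside the points and the group mean and SD drawn. Wild-type libraries 1, 3 and 4 lie from 110.0 to 154.9 FPKM, and the other 3 wild-type libraries lie from 10.9 to 24.1 FPKM beside 14-3-3ζKO libraries at 3.10 to 21.1 FPKM.

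The Cd84 difference was smaller without wild-type libraries 1, 3 and 4. These were the libraries with the highest Cd84, so leaving them out had to make the difference smaller. The Cd84 difference was then −0.80 ± 0.52 (SE), with an adjusted p of 0.349 by the permutation test and 0.275 by limma. The same 3 libraries each exceeded the other 8 in 63 of the 65 other loci with a lower 14-3-3ζKO mean. Without them the permutation test called 0 of the 86 loci, with 17 at an unadjusted p under 0.05, and limma called 5. The smallest unadjusted p was then 0.0179 over 56 assignments. For the 8 other members, values per library were not analysed here, so whether these libraries carried their differences was not tested.

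The 5 loci most like Cd84 were Cybb, Ctss, Mpeg1, Arhgap25 and Lipa, ordered by Pearson's r of log2(FPKM + 1) over the 11 libraries. Because 3 libraries stood apart, r is given over the other 8 libraries, which share the genotype difference and the scaling of the authors. It was 0.95 for Cybb, the catalytic subunit of the phagocyte NADPH oxidase, and 0.94 for Ctss, a lysosomal protease of antigen-presenting cells. It was 0.93 for Mpeg1, a pore-forming protein of macrophages, 0.92 for Arhgap25, and 0.89 for Lipa, the lysosomal acid lipase. These values describe likeness among loci already selected for a genotype difference.

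Macrophage markers moved with Cd84. Of 15 macrophage markers at or over the floor, 12 were lower in 14-3-3ζKO tissue, against 4.31% of all loci. The 15 markers had a median log2 fold of −2.21 and a summed level of 784.9 FPKM in 14-3-3ζKO against 4312 FPKM in wild-type tissue. Trem2 (log2 fold −3.49), Emr1 (−3.46), Mpeg1 (−2.92) and Lyz2 (−2.78) had the lowest folds. Mertk (−0.29), Cd163 (−0.42) and Cd14 (0.29) did not pass, and no marker was at 0 in either group. Per library, the sum of Emr1, Cd68, Mpeg1, C1qb and Trem2 ran from 116.4 to 205.6 FPKM in 14-3-3ζKO and from 209.9 to 2233 FPKM in wild-type libraries. C1qb is uncertain, since its wild-type libraries averaged 464 FPKM while the authors' group value was 359 FPKM.

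Relative to that macrophage sum, Cd84 differed less between the groups. It was 6.22%, 10.3%, 2.66%, 5.91% and 3.74% of the sum in 14-3-3ζKO libraries 1 to 5. In wild-type libraries 1 to 6 it was 7.06%, 6.01%, 7.01%, 5.87%, 5.33% and 5.19%. The means were 5.76 ± 2.92% in 14-3-3ζKO and 6.08 ± 0.80% in wild-type libraries (SD, n = 5 and 6), and the groups overlapped. Against Cd68 alone, a lysosomal protein of macrophages, Cd84 was at 23.7 ± 10.2% in 14-3-3ζKO and 26.8 ± 2.71% in wild-type libraries. Like Cd84, these markers belong to the loci that the authors selected by comparing these same libraries, so similar ratios were partly built in. Outside that set, Csf1r stood at 18.8 FPKM in 14-3-3ζKO and 92.4 FPKM in wild-type tissue. Mertk stood at 15.1 FPKM in 14-3-3ζKO and 18.7 FPKM in wild-type tissue. Ratios to such markers were not taken per library. The ratios given were chosen with the values in view and were given no test, and the part of macrophage content in the Cd84 difference was not tested.

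**Figure D3:**
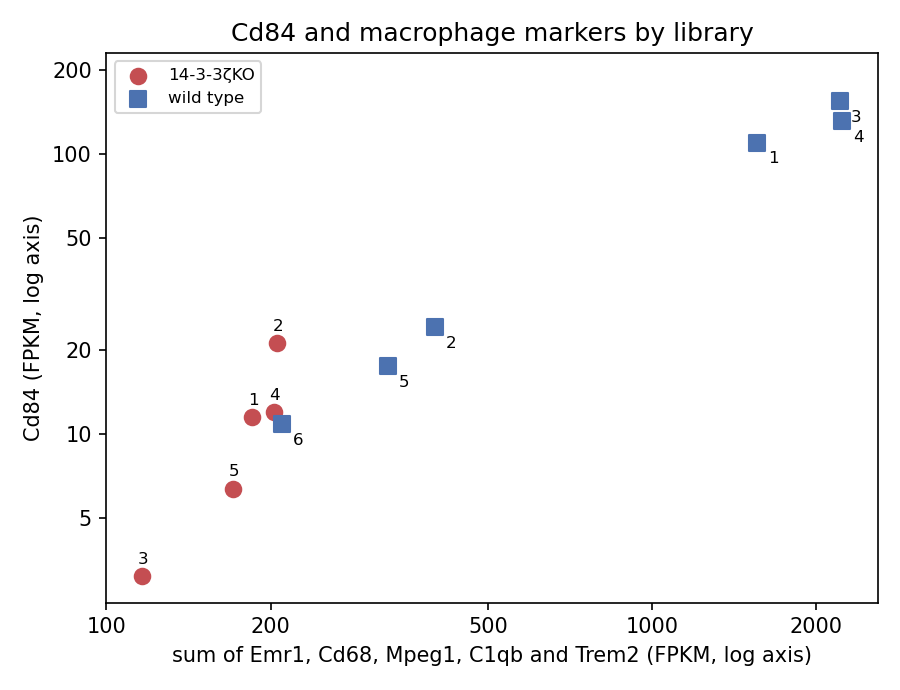
Cd84 FPKM against the sum of Emr1, Cd68, Mpeg1, C1qb and Trem2 FPKM in each library, both on log axes, with replicate numbers beside the points. Wild-type libraries 1, 3 and 4 lie at the upper right, with sums of 1558 to 2233 FPKM, and the 5 14-3-3ζKO libraries lie at 116.4 to 205.6 FPKM.

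The markers of the other leukocytes that bear SLAM receptors did not share 1 direction. For comparison, 4.31% of all loci at or over the floor were lower and 9.67% were higher. Of 7 mast cell markers, 5 were lower, with a median log2 fold of −2.57 and sums of 36.5 FPKM in 14-3-3ζKO and 137.8 FPKM in wild-type tissue. The proteases Mcpt4 (−2.92), Cpa3 (−2.82), Tpsb2 (−2.57) and Cma1 (−2.57) led them, and Hdc, which makes histamine, was higher (1.55). Kit passed neither fold, at 6.39 FPKM in 14-3-3ζKO and 5.37 FPKM in wild-type tissue (0.21). Per library, Cma1 ran from 1.07 to 11.04 FPKM in 14-3-3ζKO libraries, against 138 FPKM in wild-type library 4 and 2.77 to 44.7 FPKM in the other 5 wild-type libraries. Tpsb2 likewise ran from 0.950 to 7.56 FPKM in 14-3-3ζKO libraries, against 110.2 FPKM in wild-type library 4 and 2.60 to 40.7 FPKM in the other wild-type libraries. Without library 4 the wild-type means were 18.9 FPKM for Cma1 and 18.03 FPKM for Tpsb2, against 38.7 and 33.4 FPKM with it. Neither passed the permutation test with all libraries (adjusted p = 0.138 for Cma1 and 0.115 for Tpsb2). Of 4 NK cell markers, Klrb1c was lower (−1.09, 25.4 FPKM in 14-3-3ζKO and 55.3 FPKM in wild-type tissue). Gzma (0.47), Klrd1 (−0.10) and Nkg7 (−0.43) did not pass, and the list had a median log2 fold of −0.26. The defining markers Ncr1, Prf1 and Eomes were under the floor. Of 7 T cell markers 0 passed either fold, with sums of 22.2 FPKM in 14-3-3ζKO and 17.7 FPKM in wild-type tissue and Cd3g at 8.45 FPKM in 14-3-3ζKO and 4.88 FPKM in wild-type tissue. Of 5 dendritic cell markers 0 passed, with sums of 15.8 FPKM in 14-3-3ζKO and 15.95 FPKM in wild-type tissue. Of 8 B cell and plasma cell markers, 4 were higher and 0 were lower, with sums of 468.6 FPKM in 14-3-3ζKO and 148.7 FPKM in wild-type tissue. They included Igj (2.14), the joining chain of secreted antibodies, Cd79b (1.06) and Pax5 (1.01). Igj alone stood at 411.8 FPKM in 14-3-3ζKO and 92.9 FPKM in wild-type tissue, and the other 7 markers summed to 56.9 FPKM in 14-3-3ζKO and 55.8 FPKM in wild-type tissue. Among these, Sdc1 had 21.4 FPKM in 14-3-3ζKO and 38.9 FPKM in wild-type tissue (−0.84).

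The part of each of these cell types in the SLAM differences was not tested. Of 4 neutrophil markers, 2 were higher (9.67% over all loci), Retnlg (2.85) and S100a9 (2.10), while S100a8 (0.39) and Csf3r (−0.68) did not pass. Ly6g was under the floor, at 0 FPKM in 14-3-3ζKO and 0.0756 FPKM in wild-type tissue, and was not counted. Of 7 red cell and platelet markers, 5 were higher (9.67% over all loci). Among these, Slc4a1 had values per library, with 20.8 FPKM in 14-3-3ζKO library 1 and 0.0508 to 0.526 FPKM in the other 14-3-3ζKO libraries. Its wild-type libraries ran from 0.0275 to 0.452 FPKM, and it did not pass the permutation test (adjusted p = 0.184). Its higher group value thus rested on 14-3-3ζKO library 1. Of 10 adipocyte markers, 3 were higher and 1 was lower, against 9.67% and 4.31% of all loci, with a median log2 fold of 0.33.

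**Figure D4:**
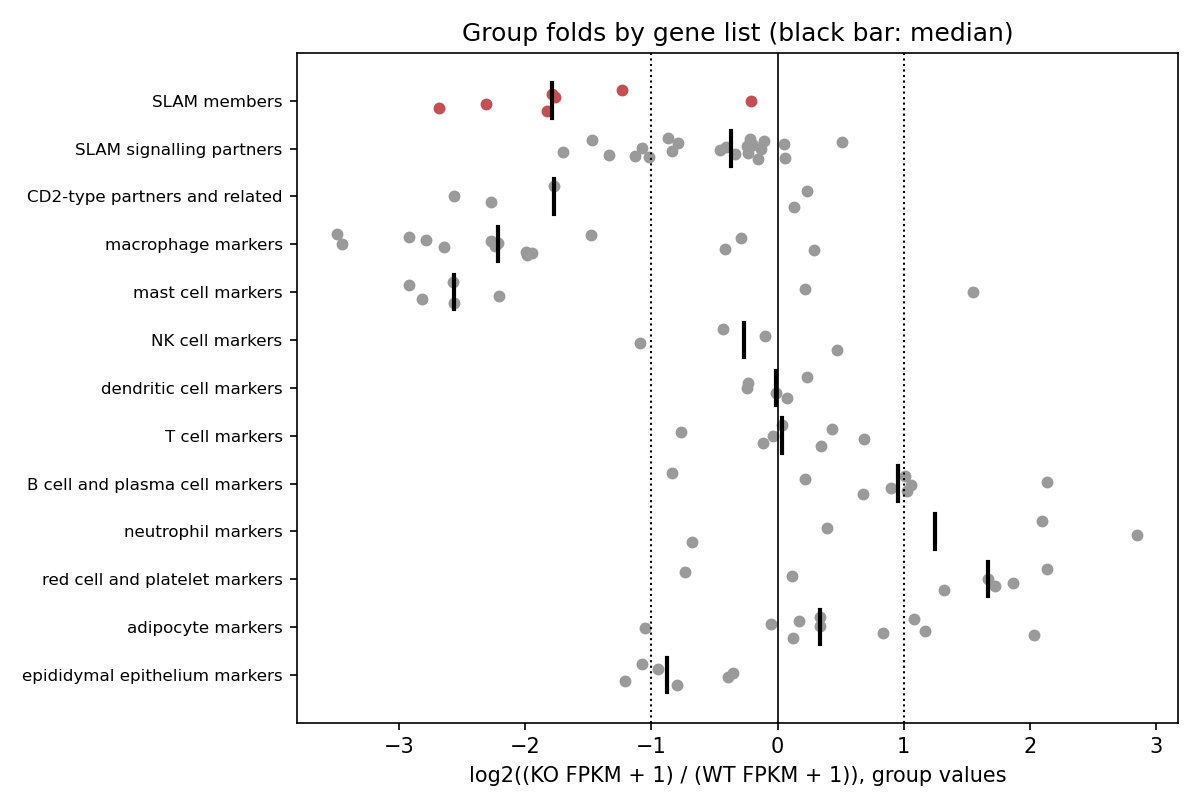
Log2((KO + 1)/(WT + 1)) of each gene at or over the floor, by list, with a bar at each list's median and dotted lines at −1 and 1. The 7 SLAM loci, the 15 macrophage markers and the 7 mast cell markers have medians of −1.79, −2.21 and −2.57, while the T cell and dendritic cell medians are 0.04 and −0.01.

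The adaptors of the family were scarce. Sh2d1a, which encodes SAP, was at 1.05 FPKM in 14-3-3ζKO and 0.869 FPKM in wild-type tissue. Sh2d1b1 and Sh2d1b2, the genes of EAT-2 and its mouse relative, shared 1 row at 0.447 FPKM in 14-3-3ζKO and 1.26 FPKM in wild-type tissue. Neither row averaged 1 FPKM, so 0 of the adaptors were counted.

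Of 22 signalling partners at or over the floor, 6 were lower and 0 were higher, against 4.31% and 9.67% of all loci. The list had a median log2 fold of −0.37. Ptpn6, the phosphatase SHP-1, stood at 9.36 FPKM in 14-3-3ζKO and 27.7 FPKM in wild-type tissue (−1.47). The docking proteins Dok2 and Dok1 had log2 folds of −1.34 and −1.13, and the kinases Lyn and Csk had −1.08 and −1.02. Fyn, the kinase recruited by SAP, did not pass, at 13.1 FPKM in 14-3-3ζKO and 15.6 FPKM in wild-type tissue (−0.24). The list's summed level in 14-3-3ζKO was 71.6% of that in wild-type tissue, while the SLAM loci at or over the floor stood at 21.3%.

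Of 5 related receptors and partners at or over the floor, 3 were lower (4.31% over all loci). The integrin chains Itgb2 (15.2 FPKM in 14-3-3ζKO and 95.2 FPKM in wild-type tissue, −2.57) and Itgam (5.05 FPKM in 14-3-3ζKO and 28.2 FPKM in wild-type tissue, −2.27) passed. So did the leukocyte phosphatase Ptprc (7.62 FPKM in 14-3-3ζKO and 28.4 FPKM in wild-type tissue, −1.77). Itgam also counted among the macrophage markers. Cd2, the T and NK cell receptor that also binds CD48 in mice, did not pass, at 4.94 FPKM in 14-3-3ζKO and 4.43 FPKM in wild-type tissue.

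The 9 genes lie in 2 groups on chromosome 1 over 1.03 Mb (NCBIM37). From lower to higher coordinate, the first holds Cd244, Ly9, Slamf7, Cd48, Slamf1, Cd84 and Slamf6, and the second holds Slamf9 and Slamf8. Ly9, Slamf7 and Slamf8 are on the minus strand. All 9 are protein coding, and the annotation places no other gene within their loci. The loci run from 173489324 to 173515449 for Cd244, from 173518755 to 173537541 for Ly9, from 173558726 to 173583039 for Slamf7 and from 173612140 to 173635389 for Cd48. Those of Cd84 and Slamf6 run from 173769828 to 173820852 and from 173847619 to 173879400. Those of Slamf9 and Slamf8 run from 174361101 to 174408706 and from 174511508 to 174520699. Slamf1, at 173697258 to 173731315 between Cd48 and Cd84, was under the floor while both of its flanking SLAM genes were lower past the fold.

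Other genes nearby mostly did not pass the fold. Of 23 other loci at or over the floor within 200 kb of a member, 2 were lower, 2 were higher and 19 passed neither fold, with a median log2 fold of −0.07. The shares over all loci were 4.31% lower and 9.67% higher. On the Cd244 side of the first group, the nearest was Alyref2 at 1.57 FPKM in 14-3-3ζKO and 2.40 FPKM in wild-type tissue (−0.41), followed by F11r at 50.1 FPKM in 14-3-3ζKO and 30.2 FPKM in wild-type tissue (0.71). On the Slamf6 side were Ncstn, at 33.6 FPKM in 14-3-3ζKO and 45.7 FPKM in wild-type tissue (−0.43), and Copa, at 76.0 FPKM in 14-3-3ζKO and 82.4 FPKM in wild-type tissue (−0.11), which share a locus and are uncertain. Beside the second group, Pigm stood at 4.69 FPKM in 14-3-3ζKO and 4.34 FPKM in wild-type tissue (0.09), and Dusp23 at 8.07 FPKM in 14-3-3ζKO and 9.89 FPKM in wild-type tissue (−0.26). The lower loci were Gm10521, which starts 2250 bases past Cd84, at 0.555 FPKM in 14-3-3ζKO and 3.63 FPKM in wild-type tissue, and Vsig8, at 0.612 FPKM in 14-3-3ζKO and 8.80 FPKM in wild-type tissue. The higher loci were Ccdc19, which shares its locus with Vsig8 so that both are uncertain, and Crp, the C-reactive protein gene, at 1.93 FPKM in 14-3-3ζKO and 0.408 FPKM in wild-type tissue.

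**Figure D5:**
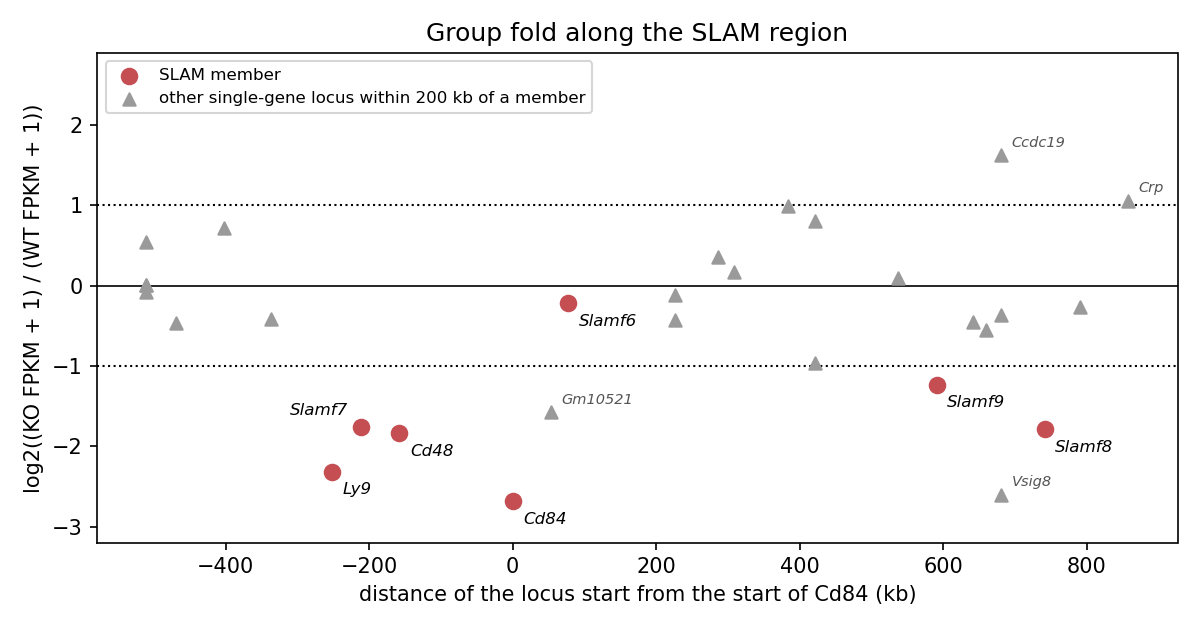
Log2((KO + 1)/(WT + 1)) of SLAM genes and of other loci at or over the floor, against the distance of the locus start from the start of Cd84 (kb), with dotted lines at −1 and 1. The lowest SLAM fold is Cd84 at −2.68, and the other loci have a median of −0.07.

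The RefSeq promoter table (GRCm38.p6, 250 bases before to 50 after the start) held 8 of the 9 members. Its coordinates belong to a newer build than the loci above. The motifs sought on both strands were the PU.1 core GAGGAA, which reads TTCCTC on the other strand, the AP-1 site TGANTCA and the E-box CACGTG. They were chosen with these sequences in view. They occurred in 28.3%, 7.81% and 7.15% of 32851 promoters. Cd84 held a PU.1 core and an AP-1 match. Slamf8 and Cd244 each held 1 of all 3, Slamf9 held a PU.1 core and an E-box, and Slamf7 held an AP-1 match. Cd48, Slamf1 and Slamf6 held none of these letters. The promoters of the highest member and of a myeloid, short-tailed member are shown 5′ to 3′ on the gene's strand, with the matches in capitals.
Cd84, chr1:171839447-171839746, plus strand: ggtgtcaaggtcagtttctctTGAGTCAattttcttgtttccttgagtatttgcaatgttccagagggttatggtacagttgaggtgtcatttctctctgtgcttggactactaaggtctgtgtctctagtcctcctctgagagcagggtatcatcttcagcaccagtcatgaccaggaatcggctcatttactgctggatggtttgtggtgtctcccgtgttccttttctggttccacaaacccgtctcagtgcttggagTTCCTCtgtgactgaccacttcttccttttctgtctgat
Slamf8, chr1:172590519-172590818, minus strand: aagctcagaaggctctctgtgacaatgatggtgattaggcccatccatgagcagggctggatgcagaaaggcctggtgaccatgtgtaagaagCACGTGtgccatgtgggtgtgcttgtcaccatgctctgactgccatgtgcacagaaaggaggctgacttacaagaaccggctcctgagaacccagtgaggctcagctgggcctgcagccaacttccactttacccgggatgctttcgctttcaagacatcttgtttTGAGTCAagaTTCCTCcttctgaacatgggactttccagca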

How the data were processed

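RNA of gonadal white adipose tissue from 5 14-3-3ζKO and 6 wild-type libraries was sequenced by the authors. Per the submitters' processing notes, reads were aligned with TopHat2 2.0.11 to NCBIM37 and quantified with Cufflinks 2.2.0 and Cuffdiff. The scaling between libraries is not stated in the labels or methods.

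For 42815 loci the authors deposited 1 pooled FPKM per group. Separate FPKM of each library were deposited for 86 loci. Columns of the authors' own comparison (fold, test statistic, p-value, q-value and call) were not used. Library means matched the group values within a relative difference of 5.21e-06 in 85 loci, all except C1qb.

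Group values were compared as log2(FPKM + 1), with a floor of 1 FPKM on their mean and a log2 fold of 1. Library values on that scale were compared by an exact two-sided permutation test with Benjamini-Hochberg adjustment over 86 loci, threshold 0.05, and by limma 3.58.1 (R 4.3.3, python 3.11.15, numpy 2.4.6, pandas 2.3.3). The p-values for the 86 loci, Ywhaz included, tend to be too small, because the authors selected these loci on the same libraries. Folds with this pseudocount understate the change of low genes. Scripts were tested on simulated data. Starts in the files count from 0 and are printed counting from 1.

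Groups came from the library titles. Named genes were the 9 members, Ywhaz, all SLAM adaptors, list members past the fold (at most 4, by largest fold) or otherwise the 2 of highest mean, the 5 loci most like Cd84, and the nearest neighbours. Some list members are not reported here. Other genes named beside these were chosen after their values were seen. The members and lists were chosen with earlier results of these data known. Alternatives were the pseudocount, floor, fold, recentring, limma, the replicate block and leaving out libraries.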

Additional observations from a re-analysis of the deposited data

How the results depend on the processing

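The 6 SLAM loci lower past the fold were 6 of 7 at a pseudocount of 0.1 FPKM (5.94% of all loci lower), 6 of 9 without a floor (2.22%), 5 of 5 at a floor of 5 FPKM (4.71%), 6 of 7 after recentring (4.59%) and 6 of 7 at a log2 fold of 0.58 (10.7%). The CD2-type partners had a median log2 fold of −0.26 without a floor.

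Cd84 passed the adjusted threshold by limma (difference −2.25, 1 member called) and by the permutation test at a pseudocount of 0.1 FPKM (−2.37, 1 member called). All p-values here tend to be too small, since the loci were selected on the same libraries. With each library left out in turn, the Cd84 difference ranged from −2.65 to −1.91. Members called ranged from 0 to 1, with 1 in all 11 limma fits, a set added after seeing the data, where the adjusted p was 0.00338 to 0.0467. The permutation test then called Cd84 without wild-type library 5 (adjusted p = 0.0488) or 6 (0.0231). Loci called, 56 with all libraries and 74 by limma, ranged from 0 to 75 by the permutation test and from 48 to 81 by limma with a library left out. The permutation test called 0 without 14-3-3ζKO library 1, 2, 4 or 5, with 55 to 68 at an unadjusted p under 0.05 and 57 to 71 called by limma. It called 9 without 14-3-3ζKO library 3, and 14 and 17 without wild-type library 1 and 4. Without wild-type libraries 1, 3 and 4 together, which had the highest Cd84, it called 0 and limma called 5. Why these values moved was not tested.

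Libraries of both groups share replicate numbers. Deviations from the group means correlated from −0.49 to 0.57 over the 5 same-numbered pairs, over 0.1 in 1 pair, and 0 of 5 correlated best with their own number, so the numbers were not taken to pair the libraries. A limma fit with the replicate block gave −2.65 for Cd84 (adjusted p = 0.00433, 1 member and 80 loci called). The same 10 libraries without the block gave −2.65 (adjusted p = 0.00338, 1 member called). Group values have no replicates, and the mapped total of each library is unknown, so no limit of detection is given for Slamf1 or Cd244.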
